A study of Mus musculus with 6 samples.

Results

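Tnfrsf4, Tnfrsf18, Il21r and Lck were followed here in virus-specific CD8+ T cells from B-cell-deficient and control mice. The genes were taken by their symbols from a table of 1018 genes, in which each of the 4 had 1 row. CD8+ T cells of the spleen, stained with a tetramer that carries the M45 peptide of murine cytomegalovirus (MCMV), were sorted 7 days after infection, in equal numbers per group, and sequenced in bulk. The B-cell-deficient animals were JHT mice (3 libraries), in which the immunoglobulin heavy chain J segments are deleted, and the controls were WT mice (3 libraries). All were adult C57BL/6J-background mice of both sexes, with littermates as controls, and all were infected, so no uninfected cells were compared.

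These 4 genes sit at different layers of T-cell activation. The T-cell receptor has no enzyme of its own and relies on Lck, a Src family tyrosine kinase held at the CD8 coreceptor, to phosphorylate the CD3 and zeta chains and ZAP-70. OX40 (Tnfrsf4) and GITR (Tnfrsf18) are costimulatory receptors of the TNF receptor superfamily, which appear or increase on the T-cell surface after activation, bind ligands on antigen-presenting cells and signal through TRAF adaptors to NF-κB. Il21r encodes the private chain of the interleukin-21 receptor, which pairs with the common gamma chain and signals through JAK1, JAK3 and mainly STAT3.

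Sequence just before the RefSeq starts of the 4 genes is shown. It places the receptors and the kinase in the genome and gives the letters of the activation motifs found there. All 4 genes matched a RefSeq start, and Lck matched 2, the outer (distal) and the inner (proximal) start, which makes 5 windows of 250 bases before a start (RefSeq, GRCm38.p6). Of each window only the longest stretch outside annotated exons is printed, 5′ to 3′ along the gene. Capitals mark motif matches on either strand.
Tnfrsf4, chr4:156013611-156013694, plus strand: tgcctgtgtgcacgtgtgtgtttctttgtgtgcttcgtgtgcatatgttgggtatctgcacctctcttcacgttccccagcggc
Tnfrsf18, chr4:156026072-156026163, plus strand: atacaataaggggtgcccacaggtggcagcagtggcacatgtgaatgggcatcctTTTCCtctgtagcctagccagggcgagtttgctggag
Il21r, chr7:125603179-125603428, plus strand: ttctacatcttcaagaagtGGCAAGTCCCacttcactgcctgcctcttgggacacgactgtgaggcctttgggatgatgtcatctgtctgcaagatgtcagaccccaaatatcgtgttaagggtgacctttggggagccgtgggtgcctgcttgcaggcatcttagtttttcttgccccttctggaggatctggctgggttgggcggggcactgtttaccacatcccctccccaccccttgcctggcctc
Lck, outer start, chr4:129573642-129573891, minus strand: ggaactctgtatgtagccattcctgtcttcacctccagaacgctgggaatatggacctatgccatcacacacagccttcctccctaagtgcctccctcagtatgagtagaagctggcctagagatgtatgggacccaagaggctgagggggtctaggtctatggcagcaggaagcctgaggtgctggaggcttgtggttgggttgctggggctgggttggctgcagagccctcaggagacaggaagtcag
Lck, inner start, chr4:129558392-129558622, minus strand: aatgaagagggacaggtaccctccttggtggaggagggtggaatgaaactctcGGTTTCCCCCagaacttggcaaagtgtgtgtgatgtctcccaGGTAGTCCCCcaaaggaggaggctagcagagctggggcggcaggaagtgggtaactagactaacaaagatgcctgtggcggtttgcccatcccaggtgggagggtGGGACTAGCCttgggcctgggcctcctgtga

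The motifs searched on both strands of the whole windows were TTCNNNGAA for STAT factors, GGG and CC parted by 5 bases of any kind for NF-κB, GGAAA for NFAT and TGANTCA for AP-1. The Il21r capitals are 1 NF-κB match, 231 bases before the start. The inner Lck start had 3 NF-κB matches, at 197, 155 and 50 bases, and 1 NFAT match at 195 bases that overlaps the first of them, whereas the outer Lck start had none of the 4 motifs. Tnfrsf18 had 1 STAT match at 99 bases and NFAT matches at 195 and 61 bases, of which only the NFAT match at 195 bases lies in the printed stretch, and Tnfrsf4 had 1 NFAT match at 220 bases, outside the printed stretch. Of all 32851 windows of this length, 7.02% held the STAT letters, 45.8% the NF-κB letters, 55.6% the NFAT letters and 6.75% the AP-1 letters. Among the 984 windows of genes in the table these shares were 5.59%, 62.3%, 51.8% and 3.35% in the same order. The matches are therefore mostly of kinds that many windows hold, and they describe letters only.

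Tnfrsf4 and Tnfrsf18 are near neighbours on chromosome 4. In the GENCODE annotation of GRCm38, Tnfrsf4 spans chr4:156013843-156016612 and Tnfrsf18 chr4:156026164-156028895, both on the plus strand and 9551 bases apart. These starts differ from the RefSeq starts, whose windows end at chr4:156013694 for Tnfrsf4 and chr4:156026321 for Tnfrsf18. The Tnfrsf18 window thus runs into the gene as GENCODE gives it, with its STAT match and the NFAT match nearer the start. Lck lies on the same chromosome at chr4:129548344-129573641 on the minus strand, and Il21r at chr7:125603429-125633570 on the plus strand. Tnfrsf18 is overlapped along its whole length by an antisense gene, Gm16008, which had no row in the table. The library kit does not mark strand, so reads of that pair cannot be told apart.

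The values are expression values scaled by the authors, per gene length and per library, so that levels of genes can be set beside each other within these data. Their low steps gave back whole reads for all 1018 genes (tolerance 0.001), which allowed exact Poisson 95% intervals for counting error. The genes with rows summed to 4040416, 5742545 and 4894010 recovered reads in JHT libraries and to 1909193, 2655404 and 2888084 in WT libraries; the full depth of each library is not known from the table. Recomputed from the values, each of the 1018 genes differed at least 2-fold and had p below 0.05 before adjustment, so the table holds only genes selected on the comparison made here. Tests below are therefore a description of selected genes. The study describes the libraries as coming from 3 JHT and 3 control mice. SEs and p-values of the linear model used here (limma) rest on a spread between libraries pooled almost wholly over genes. They do not measure the spread of each gene by itself, and the SEs are alike, at 0.39 for Il21r and 0.42 for Tnfrsf4. In bulk cells, fewer cells of a type and less RNA per cell cannot be told apart.

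All 4 genes were higher in JHT than in WT cells, with no overlap between the groups. Tnfrsf4 was 5.33-fold higher, Lck 2.29-fold, Il21r 2.15-fold and Tnfrsf18 2.02-fold. The background is as high as it can be, since 100% of the 1018 genes passed the same test (limma, Benjamini-Hochberg adjusted p under 0.05), 96.6% of them (983 genes) were higher in JHT cells, and 100% had groups that did not overlap. A count of 4 of 4 genes is thus no more than the table gives for any genes taken from it. The order of levels was the same in all 6 libraries, with Lck highest, then Tnfrsf18, Il21r and Tnfrsf4, and the ranges of neighbours in this order did not overlap within either group.

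**Figure D1:**
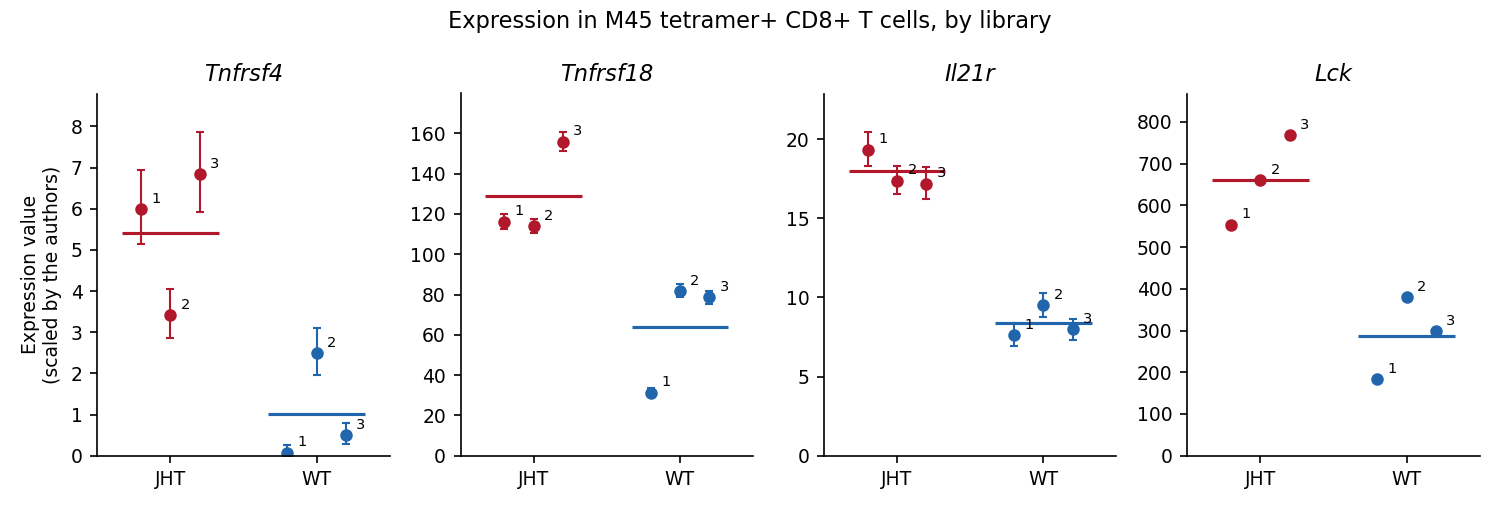
Expression values (y axis, linear and from 0, scaled by the authors) of the 4 genes in the 3 JHT and 3 WT libraries. Points are libraries with their number, bars are exact Poisson 95% counting intervals (smaller than the point for Lck) and lines are group means. Every JHT point lies above every WT point, narrowly for Tnfrsf4 (3.42 against 2.48).

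Tnfrsf4 encodes OX40, a costimulatory receptor that is scarce on resting T cells and promotes survival and expansion after activation. Its values were 6.00, 3.42 and 6.84 in the JHT libraries, numbered 1 to 3 in this order throughout, against 0.0749, 2.48 and 0.494 in the WT libraries, numbered likewise. JHT-2 is the low library of its group and WT-2 the high one of the other, so that the groups stay apart by a factor of only 1.38. They correspond to 178, 131 and 201 reads in JHT libraries and to 2, 76 and 16 reads in WT libraries. The counting intervals of JHT-2 (2.86 to 4.06) and WT-2 (1.96 to 3.11) overlap, and that of WT-1 runs from 0.00907 to 0.270. Means were 5.42 ± 1.78 in JHT and 1.02 ± 1.29 in WT cells (SD, n = 3 each), a spread of 32.9% and 127% of the mean. As log2(value + 1), a scale that compresses changes of low genes like this one, the difference was 1.81 ± 0.42 (SE, 95% interval 0.98 to 2.65, limma adjusted p = 6.79e-05). With a pseudocount of 0.1 it was 3.04. The fold ran between 3.64 without WT-1 and 19.1 without WT-2, so WT-2 alone decides whether the difference is about 5-fold or far more.

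Sdf4, which encodes a calcium-binding protein of the Golgi lumen, ends 232 bases before the GENCODE start of Tnfrsf4 on the same strand. It was chosen for description after its values were seen. Its last exon covers the outer part of the Tnfrsf4 window. Sdf4 values were 39.8, 31.4 and 48.3 in JHT libraries, against 11.6, 19.7 and 13.3 in WT libraries. The libraries thus had the same order as for Tnfrsf4, with WT-2 the highest and WT-1 the lowest WT library (Pearson's r = 0.978 over the 6 libraries on the log2 scale, a description, where the median r of Tnfrsf4 with all genes of the table was 0.874 and 92 genes were above 0.95). Tnfrsf4 amounted to 15.1%, 10.9% and 14.2% of Sdf4 in JHT libraries, against 0.647%, 12.6% and 3.70% in WT libraries. The share in WT-2 lies within the range of the JHT libraries. A part of Sdf4 transcription in the Tnfrsf4 values was not tested. Of 41 protein-coding genes within 500 kb of the Tnfrsf4 and Tnfrsf18 pair or between them, 9 had rows. Over all annotated protein-coding genes, 4.41% (966 of 21924) had a row. The 9 include Tnfrsf4 and Tnfrsf18, around which the window was set, and Sdf4, and whether this region is unusual was not tested. All 9 were higher in JHT cells, as were 96.6% of all genes of the table.

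Tnfrsf18 encodes GITR, which regulatory T cells carry at high levels and effector CD8+ T cells gain on activation. Its values were 116, 114 and 156 in JHT libraries, against 31.3, 81.7 and 78.6 in WT libraries. JHT-3 stands above the other JHT libraries and WT-1 far below the other WT libraries. Means were 128.7 ± 23.6 in JHT and 63.9 ± 28.3 in WT cells (SD, n = 3 each). With 3400, 4304 and 4515 reads in JHT and 824, 2465 and 2511 reads in WT libraries, counting error is small beside this spread. The log2 difference was 1.10 ± 0.39 (SE, limma adjusted p = 0.0055). Its 2.02-fold difference lies just inside the 2-fold limit of the table, 976th of the 983 higher genes when these are ordered from the largest fold down. Without WT-1 it was 1.61-fold, which is under that limit, and without WT-2 it was 2.34-fold.

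Il21r was the steadiest of the 4 genes. Its values were 19.3, 17.4 and 17.2 in JHT libraries, against 7.62, 9.49 and 7.98 in WT libraries. The lowest JHT library exceeded the highest WT library 1.81-fold, and the spread was 6.65% of the mean in JHT and 11.9% in WT cells. Means were 17.97 ± 1.19 in JHT and 8.36 ± 0.99 in WT cells (SD, n = 3 each). Reads numbered 1283, 1488 and 1128 in JHT and 455, 649 and 578 in WT libraries. The log2 difference was 1.02 ± 0.39 (SE, limma adjusted p = 0.0100), and leaving out any 1 library left the fold between 2.06 and 2.30. That SE is the pooled one and does not reflect the small spread of this gene.

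Lck was among the most abundant genes of the table, 28th of 1018 by level. Its values were 554, 660 and 768 in JHT libraries, against 184, 381 and 299 in WT libraries. WT-1 was the lowest library and WT-2 the highest of the WT group, as for Tnfrsf4. Means were 660 ± 107 in JHT and 288 ± 98.7 in WT cells (SD, n = 3 each), from 29760, 45787 and 40842 reads in JHT and 8906, 21084 and 17548 reads in WT libraries. The log2 difference was 1.24 ± 0.35 (SE, limma adjusted p = 0.00066), and the fold ran between 1.94 without WT-1 and 2.74 without WT-2. Relative to the median of the table genes in its own library, on the log2 scale, Lck stood at 4.41, 4.50 and 4.52 in JHT libraries, against 4.42, 4.92 and 4.67 in WT libraries, so that by this measure the groups overlapped.

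For each of the 4 genes the two-sided exact permutation test over samples gave p = 0.1, the smallest that 3 against 3 libraries allow. When any 1 library was left out, between 956 and 1010 of the 1018 genes passed, and so did the 4 genes each time, with the highest adjusted limma p at 0.00395 for Tnfrsf4, 0.0383 for Tnfrsf18, 0.0380 for Il21r and 0.0101 for Lck.

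The size of these differences was read against the rest of the table. The median log2 difference was 1.47 over all 1018 genes, and 1.17 over the 4 genes. The median fold was 2.93 over the 983 higher genes, and 2.22 over the 4 genes. Tnfrsf4 was 80th of 983 by fold, whereas Lck, Il21r and Tnfrsf18 lay below the median. The shift of most of the table in 1 direction is large: bringing the medians of the libraries together takes 1.44 off a JHT minus WT difference. After that rescaling the difference was 0.37 for Tnfrsf4, -0.33 for Tnfrsf18, -0.42 for Il21r and -0.19 for Lck, and after quantile normalization it was 0.18, -0.29, -0.40 and -0.08. None of the 4 genes passed the test under either rescaling, adjusted or at an unadjusted p under 0.05, where 5.5% of all genes passed after equal medians (2.06% as higher in JHT cells) and 5.89% after quantile normalization (2.55% as higher). Relative to the shift of this selected table, then, no gene of the 4 was called and 3 of them had a difference below 0; both rescalings by construction take away a rise that most genes share.

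**Figure D2:**
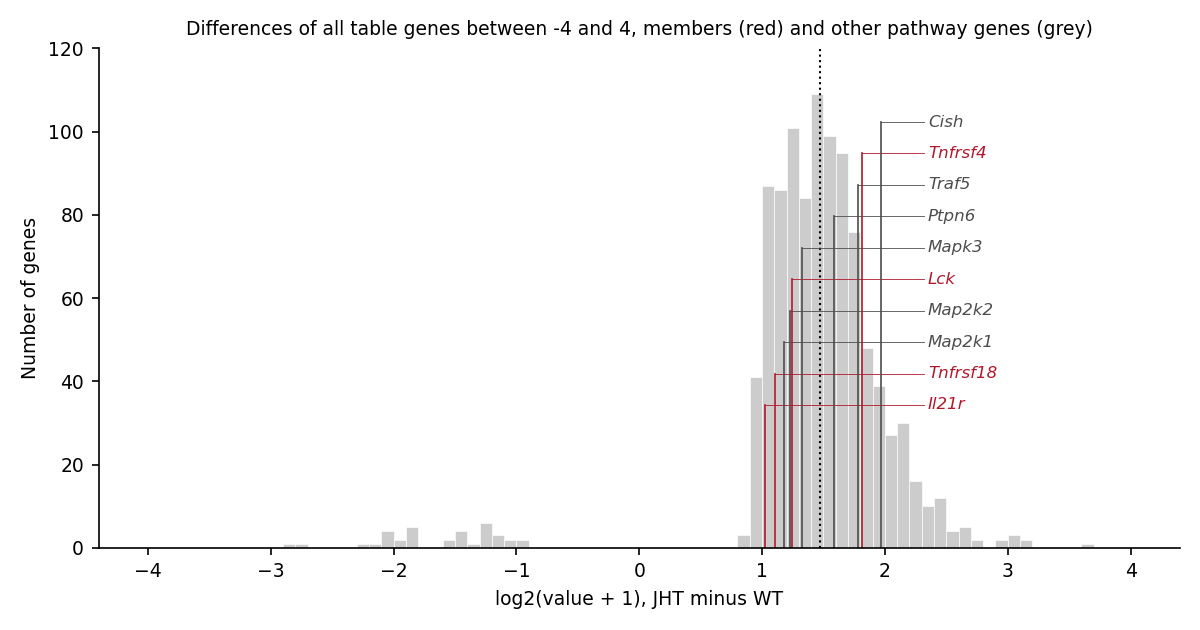
Number of genes (y axis) by log2(value + 1) difference, JHT minus WT (x axis, bins of 0.1), for all genes of the table, with the 4 genes in red, 6 other genes of the same pathways in grey and the median of all genes (1.47) as a dotted line. Il21r, Tnfrsf18 and Lck lie left of that line and Tnfrsf4 right of it, and few genes lie between -1 and 1, since the table was selected.

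**Figure D3:**
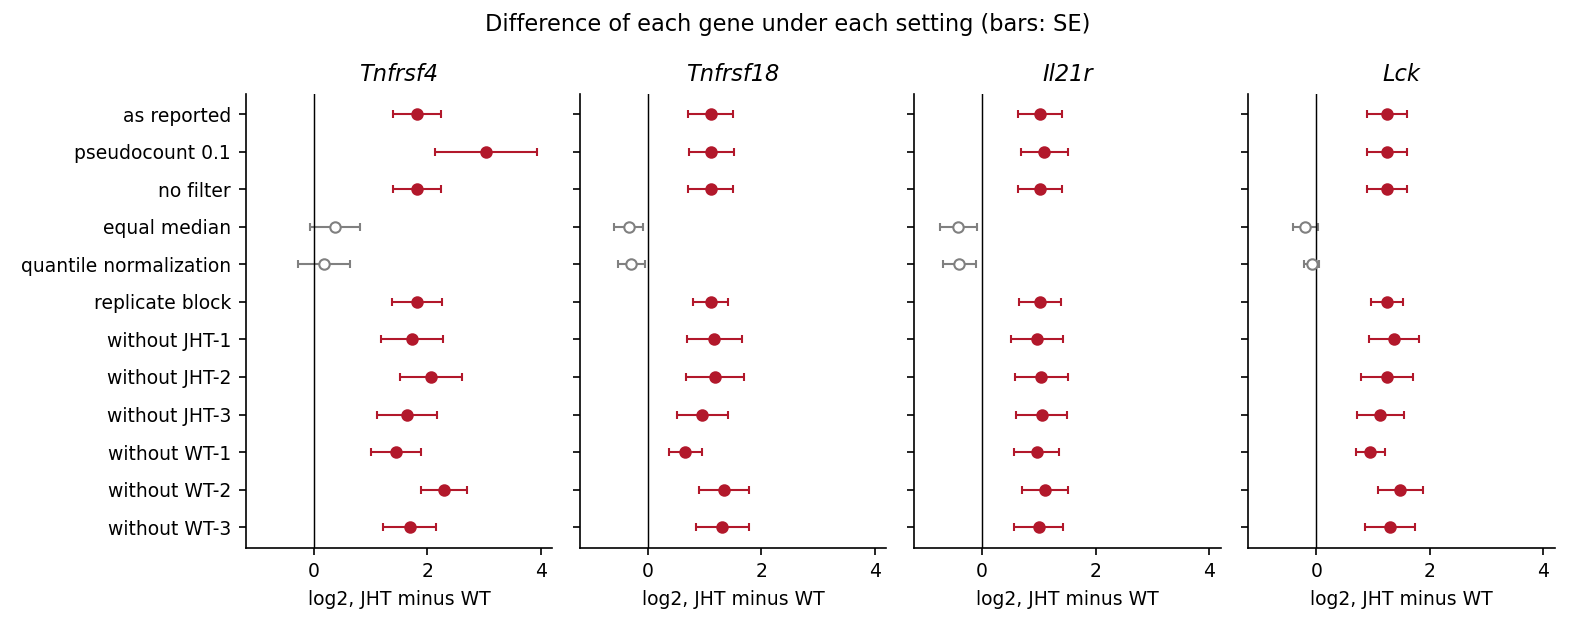
Log2 difference, JHT minus WT, with its SE (x axis) for each of the 4 genes as reported and under each other setting (y axis). Filled red points had an adjusted p under 0.05 and open grey points did not. The open points are equal medians and quantile normalization, the settings that bring the libraries together.

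Library-specific shifts were shared by part of the genes. Relative to the mean of the other WT libraries, WT-1 was lower by 1.09 for Tnfrsf4, 1.33 for Tnfrsf18, 0.17 for Il21r and 0.87 for Lck on the log2 scale, where the median over the higher genes was -0.55. WT-2 stood higher by 1.46, 0.71, 0.25 and 0.70 in the same order of genes, where that median was 0.36. Tnfrsf4, Tnfrsf18 and Lck thus moved with these libraries by more than the median gene, and Il21r by less. WT-1 also had the fewest recovered reads in genes of the table and the fewest reads per unit of value. The part of depth in these values was not tested.

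The 4 genes were also compared with each other by their ratio within a library. Computed on value + 1, these ratios still depend in part on library scaling where a gene is low, as Tnfrsf4 is, so they were also taken with no pseudocount, an alternative added after the data were seen. In none of the 6 pairs did the JHT and WT libraries separate on either scale. For the 3 pairs with Tnfrsf4 the overlap came from WT-2 alone, while WT-1 and WT-3 lay below all JHT libraries.

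Tnfrsf4 over Il21r was 0.79 higher in JHT cells on the log2 scale of value + 1 (95% interval -0.56 to 2.14, exact permutation p = 0.2, adjusted over 6 pairs 0.4), and ran from 0.49 without WT-1 to 1.19 without WT-2. Tnfrsf4 over Tnfrsf18 differed by 0.71 (interval -0.38 to 1.80) and ran from 0.38 without WT-3 to 0.96 without WT-2. Tnfrsf4 over Lck differed by 0.57 (interval -0.48 to 1.61) and ran from 0.36 without JHT-1 to 0.82 without WT-2, both with the same exact p-values. The size of all 3 depends on the pseudocount. With 0.1 they were 1.94, 1.92 and 1.79 in this order, and with none they were 2.42 (interval -1.48 to 6.31), 2.41 (interval -0.63 to 5.44) and 2.28 (interval -1.05 to 5.61), with exact p-values as before and WT-1 resting on 2 reads of Tnfrsf4.

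Pairs without Tnfrsf4 moved less with the pseudocount. Tnfrsf18 over Lck differed by -0.14 on value + 1 (interval -0.68 to 0.40, exact permutation p = 0.4, adjusted 0.6) and by -0.13 with no pseudocount. Tnfrsf18 over Il21r differed by 0.083 (interval -1.11 to 1.27) and by 0.013 with no pseudocount, and Il21r over Lck by -0.22 (interval -1.05 to 0.61) and by -0.14 with no pseudocount. A difference in response between the genes was not detectable with these libraries, and the intervals on value + 1 leave room for a difference of more than 2-fold in 5 of the pairs.

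**Figure D4:**
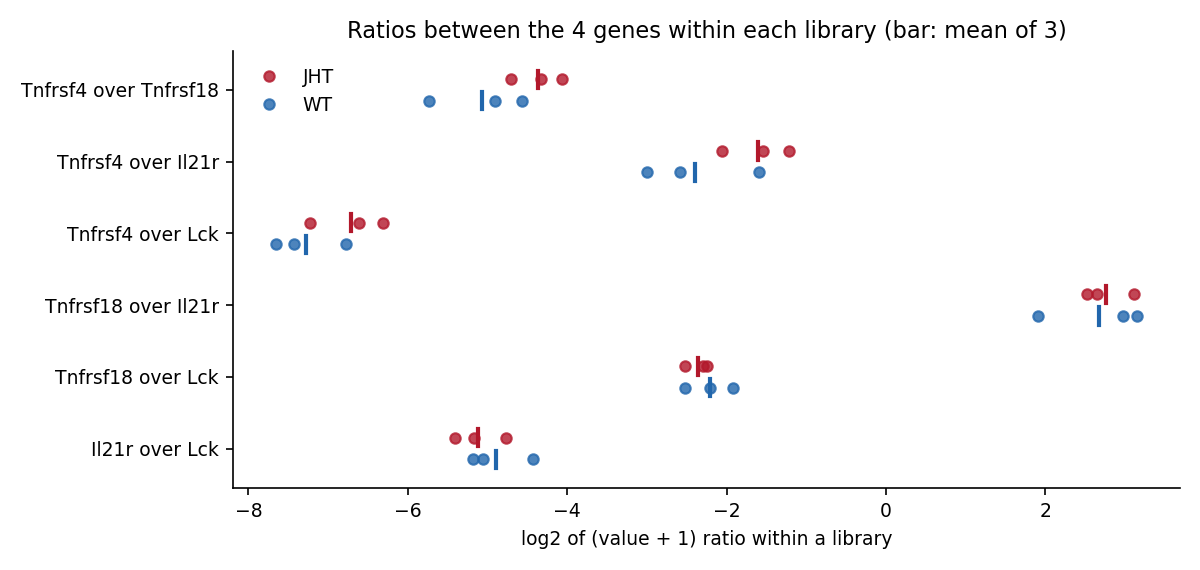
Log2 of the ratio of 2 genes within a library, computed on value + 1 (x axis), for the 6 pairs (y axis), with JHT libraries in red above WT libraries in blue and bars at the means of 3 libraries. The colours overlap along the x axis in every pair.

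Few other genes of these pathways had rows. Of 115 further genes in 10 lists of the same pathways, 6 were in the table, and all 6 passed the test as higher in JHT cells, where 96.6% of all genes of the table did. A row itself means that a gene was selected as changed, and 4.41% of all annotated protein-coding genes (966 of 21924) had one, so that 6 of 115 is near this background. The costimulatory TNF receptors had 2 rows among 8 genes and the common gamma chain receptors 1 among 8, but these are Tnfrsf4, Tnfrsf18 and Il21r themselves, and the counts say nothing beyond that. The ligands of both receptor families, the CD28 family and the Src family kinases other than Lck had no rows. Genes without a row were not analysed here, and nothing is said of their levels.

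Among the listed adaptors and feedback regulators, Traf5 and Cish had rows. Traf5, an adaptor of several TNF receptors including OX40 and 1 of 5 TRAF genes listed, had 10.3, 10.2 and 19.3 in JHT libraries, against 3.32, 2.73 and 2.92 in WT libraries, which is 4.43-fold higher (log2 difference 1.78 ± 0.40, SE). JHT-3 is the high library, and the WT libraries lie close together, unlike those of Tnfrsf4. Cish, a STAT5-induced inhibitor of cytokine and T-cell receptor signaling and 1 of 11 JAK, STAT and SOCS genes listed, had 6.54, 3.85 and 6.42 in JHT libraries, against 0.658, 1.29 and 0.193 in WT libraries, which is 7.87-fold higher (1.97 ± 0.43) and 13.2-fold without WT-2. As for Tnfrsf4, JHT-2 was the low and WT-2 the high library. The lists are not complete. Genes of the same steps outside them that also had rows, chosen after their values were seen, include Tradd, Sit1 and Socs4. Tradd, an adaptor of TNF receptor signaling, was 4.37-fold higher, and Sit1, an inhibitory adaptor of T-cell receptor signaling, 4.52-fold. Socs4, a member of the SOCS family, was 9.13-fold higher. It rests on low WT values of 0.823, 0.291 and 0.495, against 3.62, 3.10 and 7.97 in JHT libraries, and its log2 difference was 1.86. Such large folds do not stand for all unlisted genes. Ripk1, Nras and Sh2d2a, also outside the lists, had log2 differences of 1.06, 1.04 and 1.24, below the table median of 1.47.

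Ptpn6 and Lck were the 2 rows among 25 genes of proximal T-cell receptor signaling. Ptpn6 encodes SHP-1, a tyrosine phosphatase that dampens signals of the receptor, and had 66.1, 74.1 and 72.6 in JHT libraries, against 13.2, 30.6 and 29.4 in WT libraries, which is 2.90-fold higher (log2 difference 1.59 ± 0.40, SE). WT-1 stood low, as for Tnfrsf18. Downstream, 3 of 36 genes had rows, and these are kinases of the MEK and ERK steps of the MAP kinase cascade. Mapk3 (ERK1) was 3.09-fold, Map2k1 (MEK1) 2.65-fold and Map2k2 (MEK2) 2.63-fold higher in JHT cells, with log2 differences of 1.32 ± 0.41, 1.18 ± 0.40 and 1.23 ± 0.40 (SE). Mapk3 had 6.15, 7.72 and 9.19 in JHT libraries, against 2.81, 1.65 and 3.01 in WT libraries. In WT-1, Mapk3, Map2k1 and Map2k2 were not low, at 0.23, 0.54 and 0.32 above the mean of the other WT libraries. Under both rescalings Traf5, Cish and Ptpn6 had differences above 0 and Map2k1, Map2k2 and Mapk3 below 0, and 0 of 6 passed, also at an unadjusted p under 0.05. Cish, Ptpn6, Traf5 and Map2k1 each overlap an antisense gene or a gene on the other strand, so reads shared with these cannot be told apart.

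**Figure D5:**
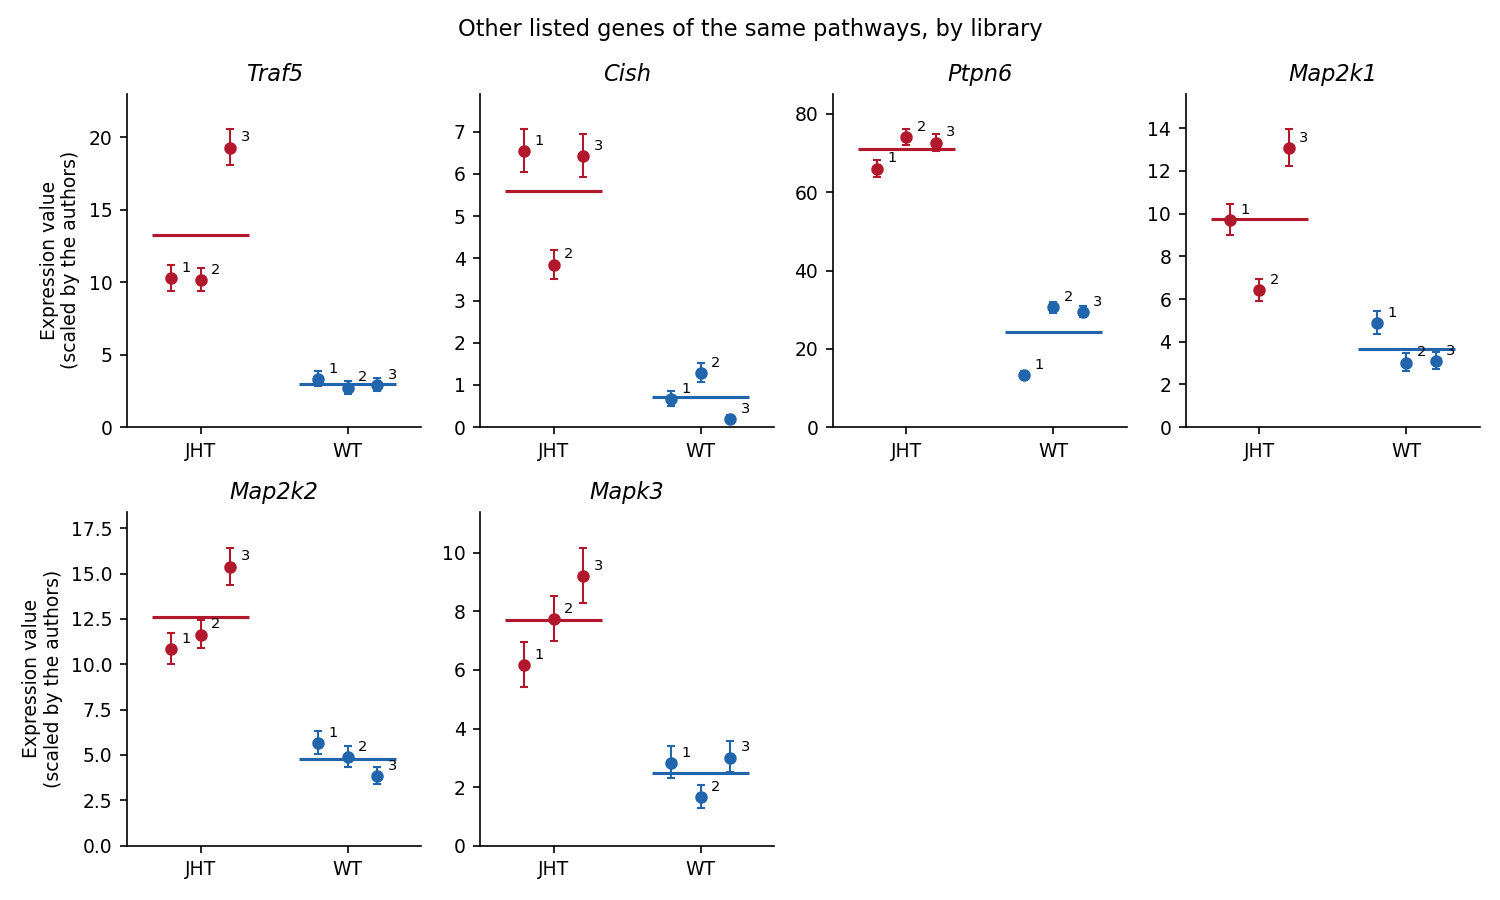
Expression values (y axis, linear and from 0, scaled by the authors) of the 6 other pathway genes with rows, in the 3 JHT and 3 WT libraries, drawn as for the 4 genes above: points with library numbers, exact Poisson 95% counting intervals and lines at the means. WT-1 is the lowest WT library for Ptpn6 but the highest for Traf5, Map2k1 and Map2k2.

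The genes whose pattern over the 6 libraries was most like that of each of the 4 were all outside these lists. Only 10 of the 1018 genes of the table, the 4 included, are in the pathway lists, so nearly any gene lies outside them. The highest Pearson's r of log2 values was with Trim27 (0.996), Rsph3b (0.995) and Ncor1 (0.994) for Tnfrsf4, and with Pmpcb (0.999), Spryd4 (0.997) and AI467606 (0.997) for Tnfrsf18. For Il21r it was with St6galnac4 (0.998), Cs (0.995) and Fastk (0.995). Lck was followed most closely by Acaa2 (r of 1.000 when rounded), Cnn2 (0.9995) and Pkp3 (0.999), and 374 genes had r above 0.95 with it, against 92 with Tnfrsf4, 159 with Tnfrsf18 and 144 with Il21r. All such values are descriptions over 6 libraries that share the shift between the groups, and the median r with all genes was already between 0.866 for Tnfrsf18 and 0.926 for Lck.

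The label of the cells could not be checked, since a row exists only for genes selected as changed between the groups. Of 8 CD8 T-cell markers, 1 had a row, and that was Lck itself. None of 44 further marker genes for CD8 T cells, CD4 and regulatory T cells, NK cells, B cells, myeloid and dendritic cells or erythroid cells and platelets had a row. No summed marker level of another cell type could therefore be set beside the 4 genes.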

How the data were processed

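Total RNA of sorted cells was turned into cDNA and sequenced as paired ends, as stated alike for all 6 samples. The authors trimmed adaptors and mapped reads with default RNA-seq settings of CLC Genomics Workbench to mouse GRCm38, with an annotation that is not given in the sources used here. In the deposited table stands, for each gene, a scaled signal per library, and whether it is RPKM or TPM is not stated. Further columns hold the authors' group comparison as differences, folds, p-values and adjusted p-values,, which were not used. Columns of samples left unmapped numbered 0.

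Groups came from the sample labels. Values were tested as log2(value + 1) with limma 3.58.1 (trend) in R 4.3.3, with genes at 1 or more in at least 3 libraries, no covariate, and adjustment by Benjamini-Hochberg over all 1018 genes. The code was tested on simulated data. The table holds only selected genes, so p-values are conditional on that selection. The tests used the deposited length-scaled values, which are not counts. No count model was fitted to the recovered reads, which served for exact Poisson intervals that cover counting error only. Pair ratios, on value + 1 and, added later, with no pseudocount, used exact permutation tests in Python 3.11.15 with scipy 1.17.1.

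The 4 genes and all lists were chosen with earlier results of these data known. Genes named are the 4, every listed pathway gene with a row, and the 3 genes most correlated with each. Sdf4, Tradd, Socs4, Sit1, Ripk1, Nras and Sh2d2a were added after their values were seen. A further gene was taken out of the lists and is not reported here, so counts of listed genes are without it. Alternatives were a pseudocount of 0.1, no filter, equal medians, quantile normalization, a replicate block and leaving out each library. Positions are from GENCODE, promoter windows from RefSeq.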

Additional observations from a re-analysis of the deposited data

How the results depend on the processing

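Scaling changed calls and directions, and the pseudocount changed the size for Tnfrsf4, whose log2 difference was 3.04 with 0.1. With equal medians, 56 of the 1018 genes passed, and with quantile normalization 60; of the 4 genes 0 passed under either. The log2 differences under equal medians were 0.37 for Tnfrsf4, -0.33 for Tnfrsf18, -0.42 for Il21r and -0.19 for Lck, and under quantile normalization 0.18, -0.29, -0.40 and -0.083 in the same order. Adjusted p-values of these genes in the limma fits lay between 0.734 and 0.822 under equal medians and between 0.741 and 0.921 under quantile normalization. Map2k1, Map2k2 and Mapk3 turned to -0.26, -0.21 and -0.11 under equal medians and to -0.29, -0.21 and -0.20 under quantile normalization. Both settings remove by construction a difference that most genes share, and whether that shared difference is technical was not tested.

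Leaving out 1 library left between 956 and 1010 genes called, and all 4 genes passed each time, with differences between 1.45 and 2.30 for Tnfrsf4, 0.66 and 1.34 for Tnfrsf18, 0.96 and 1.11 for Il21r and 0.95 and 1.48 for Lck. Pair ratios without a library ran from -0.30 to 0.32 for Tnfrsf18 over Il21r, from -0.29 to 0.0094 for Tnfrsf18 over Lck and from -0.39 to 0.010 for Il21r over Lck, and so changed sign. For Tnfrsf4 they ran from 0.38 to 0.96 over Tnfrsf18, from 0.49 to 1.19 over Il21r and from 0.36 to 0.82 over Lck, and were 1.92, 1.94 and 1.79 with a pseudocount of 0.1. The pseudocount of 0.1 and no filter kept the direction and the call of the 4 genes and the 6 others. The labels give both groups the replicate numbers 1 to 3. Deviations of same-numbered libraries from their group mean correlated at 0.168, 0.0305 and 0.107, and those of other pairs between -0.133 and 0.0306. Of the 6 libraries, 5 correlated best with their own number. Such correlations do not decide whether the numbers mark pairs. The main model took the libraries as unpaired, and a replicate block was fitted beside it. With a replicate block, 1018 genes and all 4 of the genes passed, as without it. The SE went from 0.35 to 0.28 for Lck, from 0.39 to 0.31 for Tnfrsf18 and from 0.39 to 0.37 for Il21r. For Tnfrsf4 it rose from 0.42 to 0.44. The labels do not say whether the numbers mark shared litters or sort days. Depth limits Tnfrsf4 most, with 2 reads in WT-1.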
